A study of Homo sapiens with 9 samples.

Results

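The genes described here are 45 genes of the unfolded protein response and of the stress program controlled by ATF4, measured in PC3, a cell line from a human prostate cancer that had spread to bone. They were chosen by name for their known function and comprise 3 stress sensors, 5 transcription factors, 7 feedback and stress regulators, 9 genes of amino acid and folate metabolism and transport, 3 aminoacyl-tRNA synthetases, 12 chaperones and folding enzymes of the endoplasmic reticulum, 3 genes of endoplasmic reticulum-associated degradation and 3 genes of secreted or surface proteins. All 45 had at least 1 probe set bright enough to be tested, out of 14863 genes tested in all. After 48 h of culture the RNA of the PC3 cells was read on 9 microarrays (Affymetrix, Human Genome U133 Plus 2.0). Untreated PC3 cells grew alone (n = 2 arrays). In OB SostKO the PC3 cells shared their medium with primary osteoblasts of Sost knockout mice (n = 2). In OB WT + rhDKK1 they shared it with wild type mouse osteoblasts and 100 ng/ml recombinant human DKK1 (n = 2), and in OB WT + rhSOST with wild type mouse osteoblasts and 100 ng/ml recombinant human SOST (n = 3). Sclerostin, the product of SOST, and DKK1 are secreted inhibitors of Wnt signaling. The osteoblasts sat on culture inserts placed in the wells of the PC3 cells, the protein was added to the medium, and arrays of 1 group are labelled as biological replicates. A co-culture with wild type osteoblasts and no added protein was not analysed here, so an effect of the osteoblasts and an effect of the added protein cannot be told apart.

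Secreted and membrane proteins fold in the endoplasmic reticulum, and misfolded proteins there are sensed by the products of ERN1 (IRE1), EIF2AK3 (PERK) and ATF6. IRE1 splices XBP1 RNA and ATF6 is cut into an active factor, and both raise chaperones such as HSPA5 (BiP). PERK phosphorylates the initiation factor eIF2α, which lowers protein synthesis in general while ATF4 protein is made, and ATF4 then raises genes for amino acid supply and feedback genes such as DDIT3 (CHOP), TRIB3 and PPP1R15A (GADD34). Other kinases that sense amino acid shortage, heme shortage or viral RNA converge on the same step. Much of this regulation acts on proteins or on splicing, which the RNA levels measured here do not show.

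The untreated arrays differed from the 7 co-culture arrays in their controls as well as in their culture. The poly-A RNA controls, which are added to a sample during labeling, averaged 11.3 ± 0.48 (SD, n = 2 untreated arrays) against 6.65 ± 0.28 (SD, n = 7 co-culture arrays) on the log2 scale (two-sided exact permutation test, p = 0.0278, the smallest this design allows). The ACTB 3′ minus 5′ difference, a measure of RNA integrity, was 0.69 ± 0.27 (SD) on the former and 1.38 ± 0.33 (SD) on the latter, with the same exact p, while for GAPDH it was 0.19 against 0.20. Co-culture and the preparation of the untreated arrays cannot be told apart in any comparison with untreated PC3 below. The epithelial markers KRT8, KRT18, KRT7 and EPCAM were bright on all 9 arrays, and KLK3, listed as low or absent in PC3, stood at 6.71 to 7.34. The mean level of the 8 osteoblast markers measured was 5.46 to 5.59 on the untreated and 5.41 to 5.57 on the co-culture arrays. Of those, RUNX2 (8.62 to 9.16) and COL1A1 (8.68 to 9.77) were far above this mean on all 9 arrays, and the rest lay at 2.71 to 5.10. The 3 stromal markers averaged 4.94 to 4.98 on the untreated and 4.67 to 5.07 on the co-culture arrays. Among the 7 co-culture arrays, OB WT + rhSOST array 3 gave the highest or the lowest value for 25 of the 45 genes (47% of all genes) and OB SostKO array 1 for 18 (48.5% of all genes).

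Promoter sequences were examined first, because the different branches of the response act through known short elements. RefSeq promoter windows on GRCh38.p14, from 250 bases before to 50 bases after a start, were at hand for 40 of the 45 genes. The full endoplasmic reticulum stress element is CCAAT and CCACG parted by 9 free bases and was searched on both strands. It lay in windows of 7 of them, which made 9 of 58 member windows (15.5%) against 27 of 35116 windows of all genes (0.0769%). The 9 windows hold the single CANX site 3 times, and the windows of all genes include those of the members. Since the members were chosen for their known function, the shares given here and below are a description and no independent evidence. The 8 different matches are shown to make plain which genes carry the element. Each is written in the direction of the element, 5′ to 3′, with the fixed letters in capitals and the free spacer in lower case.
HSPA5: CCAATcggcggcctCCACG
HSP90B1, outer match: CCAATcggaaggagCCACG
HSP90B1, inner match: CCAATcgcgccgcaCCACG
CALR: CCAATgatggtcgaCCACG
CANX: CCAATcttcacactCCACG
CRELD2: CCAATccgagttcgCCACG
PDIA6: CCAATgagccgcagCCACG
XBP1: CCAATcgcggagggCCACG
Of these 7 genes, 6 are chaperones or folding enzymes and XBP1 is itself a factor of the response. In the direction of its gene the match began 66 bases before the start in HSPA5, 194 and 89 in HSP90B1, 225 in CALR, 9 in CANX, 80 in CRELD2, 86 in PDIA6 and 52 in XBP1. The windows of HSPA5, whose RNA is the usual readout of the response, and of HSP90B1, the member with 2 full elements, are shown in whole up to the start, with the elements in capitals.
HSPA5, chr9:125241344-125241593, minus strand: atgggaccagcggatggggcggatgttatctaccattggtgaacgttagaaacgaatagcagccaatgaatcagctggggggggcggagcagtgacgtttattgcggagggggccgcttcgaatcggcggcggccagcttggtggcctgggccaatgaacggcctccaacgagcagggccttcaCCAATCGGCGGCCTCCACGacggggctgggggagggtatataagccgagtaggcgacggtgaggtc
HSP90B1, chr12:103930160-103930409, plus strand: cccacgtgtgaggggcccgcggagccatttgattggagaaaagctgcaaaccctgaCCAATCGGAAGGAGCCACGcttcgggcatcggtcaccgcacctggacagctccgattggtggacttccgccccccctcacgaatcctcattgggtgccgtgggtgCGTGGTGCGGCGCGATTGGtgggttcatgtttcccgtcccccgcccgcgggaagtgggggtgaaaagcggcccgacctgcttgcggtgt
The second capitalized stretch of HSP90B1 holds the element on the opposite strand, so it reads from CGTGG to ATTGG.

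The element through which ATF4 acts together with C/EBP factors, TGATGNAAN on both strands, lay in 6 of the 58 member windows (10.3%) and in 3.61% of all windows. Its matches are shown to make plain which members carry it, and a match does not by itself make a gene a target of ATF4. None of these 6 genes was among the 7 above, an overlap that was not tested against chance.
ASNS: TGATGaAAc
CEBPG: TGATGcAAc
CHAC1: TGATGcAAc
GARS1: TGATGaAAt
HERPUD1: TGATGcAAc
SLC3A2: TGATGtAAg
The common form TGATGCAAT was in 0 of the 58 member windows and in 0.236% of all windows, and TGACGTG, to which spliced XBP1 and ATF6 bind, was in the window of HYOU1 alone (1.72% of member windows, 1.97% of all windows). The last part of the first element, CCACG, which overlaps each full match, was in 69% of member windows and in 38.1% of all windows. A match is a run of letters and was not tested for binding.

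Of the 45 genes, 41 did not pass the test in any co-culture, as 92.3% of all genes did not, and 3 passed in all 3, as 2.84% of all genes did. In OB SostKO, 1 member rose (GDF15) and 2 fell (GADD45A and PPP1R15A) against untreated PC3 at a Benjamini-Hochberg adjusted p under 0.05 from limma, beside 2.07% of all genes that rose and 1.65% that fell. In OB WT + rhDKK1 the counts were again 1 and 2, with the same genes, beside 2.5% and 1.76% of all genes. In OB WT + rhSOST, 2 members rose (GDF15 and DDIT3) and 2 fell (GADD45A and PPP1R15A), beside 4.87% and 2.1%. Of either direction that is 3, 3 and 4 of 45 members against 3.72%, 4.26% and 6.97% of all genes, which for so few members is near the background. None of the 45 also reached a fold of 2, as 0.0875% to 0.148% of all genes did in 1 direction. The 3 comparisons share the untreated arrays. At an unadjusted p under 0.05, which has no control for the number of genes, 15, 14 and 15 members stood out, beside 20.7%, 21.3% and 23.6% of all genes.

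**Figure D1:**
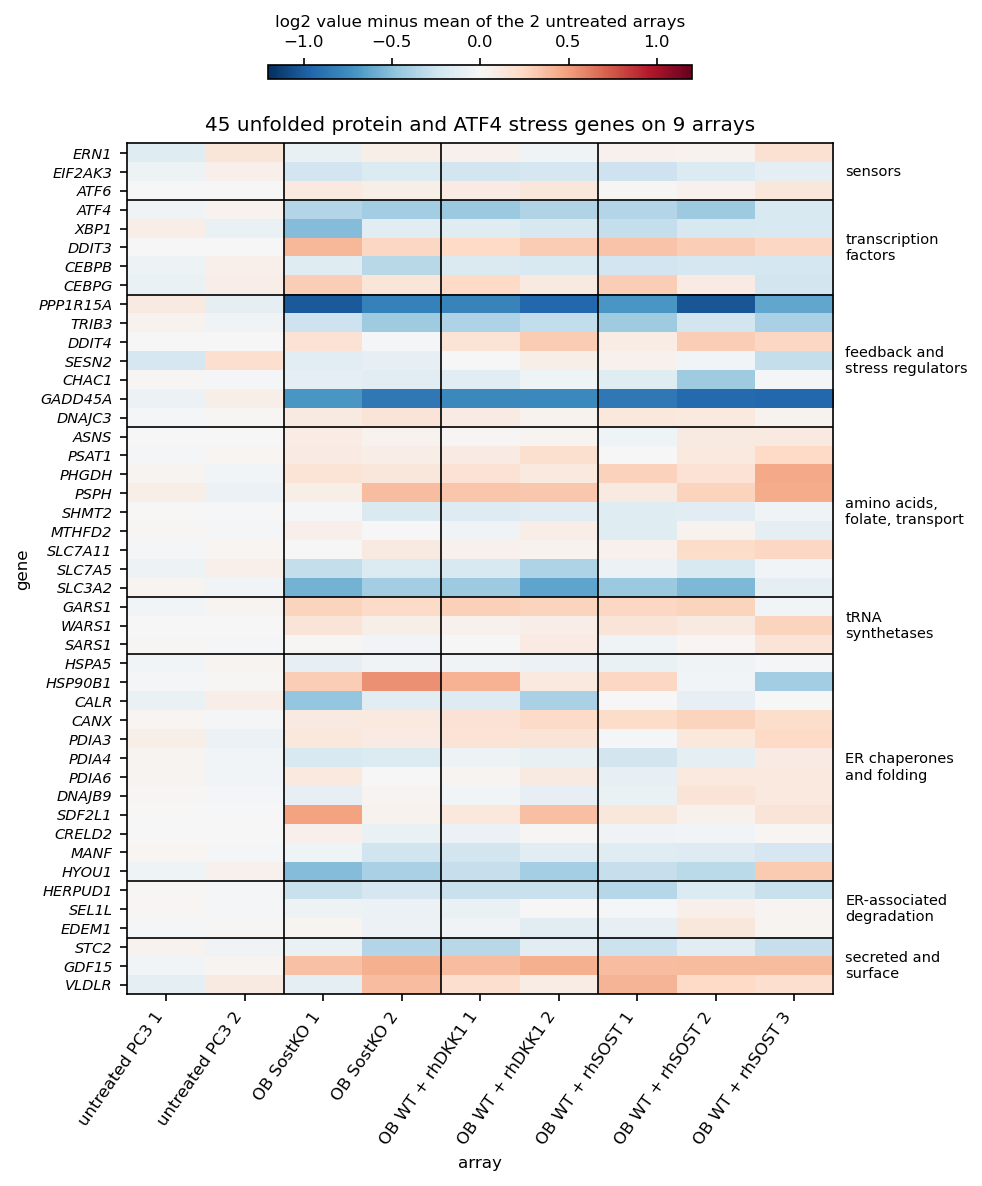
Heat map of the 45 genes (rows, grouped by role) on the 9 arrays (columns, grouped by condition), with color for the log2 value minus the mean of the 2 untreated arrays. The rows of GADD45A and PPP1R15A are blue on all 7 co-culture arrays and that of GDF15 is red, while most rows stay pale.

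The direction of the small differences was mixed. The median log2 fold change of the 45 genes was -0.01 in OB SostKO, 0.00 in OB WT + rhDKK1 and 0.02 in OB WT + rhSOST, and that of all genes was -0.01, -0.01 and 0.02. Against untreated PC3, 18 members lay above in all 3 comparisons, 19 lay below and 8 had mixed signs. All 7 co-culture arrays lay above both untreated arrays for 8 members, as for 15.4% of all genes, and below both for 13 members, as for 11.3% of all genes. The 95% interval of the log2 fold change stayed within ±1, a fold of 2, for 44, 44 and 43 of the 45 genes by their brightest sets. A change of that size thus lay outside the interval of the brightest set for most of them. Over all 88 kept probe sets of the members, 8, 7 and 5 intervals passed ±1, in 6, 5 and 4 genes.

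The clearest differences were falls among the feedback and stress regulators. GADD45A, a growth arrest and DNA damage gene that the ATF4 program also induces, had log2 values of 12.38 and 12.52 on the untreated arrays, 11.75 and 11.59 in OB SostKO, 11.67 and 11.67 in OB WT + rhDKK1, and 11.59, 11.52 and 11.51 in OB WT + rhSOST. All 7 co-culture arrays were below both untreated arrays. It fell by 0.78 ± 0.09 (SE) on the log2 scale in OB SostKO, by 0.78 ± 0.09 in OB WT + rhDKK1 and by 0.91 ± 0.08 in OB WT + rhSOST (limma, adjusted p = 0.00473, 0.00416 and 0.00129). The call held with each of the 9 arrays left out in turn, with a largest adjusted p of 0.0459, although 6 of those fits left 1 array in a group and assumed that it varied like the others. When the fit held only the 2 groups compared, its adjusted p was 0.0906 in OB SostKO and 0.0523 in OB WT + rhDKK1 and the call was lost.

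PPP1R15A, which brings a phosphatase to eIF2α and so ends the block on protein synthesis, had log2 values of 9.49 and 9.27 on the untreated arrays. It stood at 8.37 and 8.57 in OB SostKO, 8.57 and 8.44 in OB WT + rhDKK1 and 8.68, 8.35 and 8.75 in OB WT + rhSOST, with every co-culture array below both untreated ones. The fall was 0.91 ± 0.14 (SE), 0.87 ± 0.14 and 0.78 ± 0.13 on the log2 scale (limma, adjusted p = 0.0173, 0.0169 and 0.0119), which is 1.88-fold, 1.83-fold and 1.72-fold. Both of its probe sets passed, the dimmer falling by 1.08, 0.99 and 0.83. PPP1R15A is in a supplementary gene list that the study chose on these arrays, so its fall is no independent evidence. Without untreated array 1 it lost the call in all 3 comparisons (adjusted p = 0.116, 0.116 and 0.113), as it did in OB SostKO without array 1 of that group (0.0845) and in OB WT + rhDKK1 without array 1 (0.0875) or array 2 (0.122). In 2-group fits its adjusted p was 0.0906 in OB SostKO and 0.0555 in OB WT + rhDKK1.

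The other regulators did not pass the test. TRIB3, a pseudokinase that dampens ATF4, was below both untreated arrays on all 7 co-culture arrays, with log2 fold changes of -0.34, -0.33 and -0.35 (limma, adjusted p = 0.100, 0.0989 and 0.0562). DDIT4, an inhibitor of mTORC1 signaling, had log2 fold changes of 0.07, 0.24 and 0.21, CHAC1, which breaks down glutathione, -0.12, -0.09 and -0.20, DNAJC3, an inhibitor of PERK, 0.13, 0.07 and 0.10, and SESN2, a sensor of leucine, -0.12, 0.04 and -0.09. Among these 7 regulators the sign differed from gene to gene. As in any bulk RNA, fewer cells of a kind and less RNA in each cell cannot be told apart.

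GDF15, a secreted cytokine of the TGF-β family that rises under many stresses, was the member that rose in every co-culture. Its brightest probe set had log2 values of 7.83 and 7.89 on the untreated arrays, 8.21 and 8.29 in OB SostKO, 8.23 and 8.29 in OB WT + rhDKK1 and 8.23, 8.24 and 8.24 in OB WT + rhSOST. The co-culture arrays were above both untreated arrays and lay within a narrow range. It rose by 0.39 ± 0.07 (SE), 0.40 ± 0.07 and 0.38 ± 0.06 on the log2 scale (limma, adjusted p = 0.0235, 0.0215 and 0.0127). The second kept probe set did not follow it, with log2 fold changes of -0.12, -0.15 and -0.06 at levels of 4.56 to 5.14, and the mean of both probe sets had log2 fold changes of 0.13, 0.13 and 0.16 and did not pass (adjusted p = 0.510, 0.522 and 0.379). The call was lost in OB SostKO without either untreated array (0.140 and 0.0690), either OB SostKO array (0.0654 and 0.0737) or either OB WT + rhDKK1 array (0.0534), in OB WT + rhDKK1 without either untreated array (0.127 and 0.0617) or either array of its own (0.119 and 0.157), and in OB WT + rhSOST without untreated array 1 (0.105) or its own array 2 (0.0521). In 2-group fits it was also lost in OB SostKO (0.150) and OB WT + rhDKK1 (0.0779).

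The other 2 genes of secreted or surface proteins did not pass. STC2, a secreted glycoprotein, had log2 fold changes of -0.22, -0.23 and -0.22 (limma, adjusted p = 0.315, 0.279 and 0.233). VLDLR, a lipoprotein receptor, was the dimmest member, with log2 values of 5.39 to 5.92, and had log2 fold changes of 0.13, 0.15 and 0.28 (adjusted p = 0.673, 0.621 and 0.265).

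The transcription factors moved in both directions. DDIT3, the factor CHOP that follows ATF4, had log2 values of 8.56 and 8.54 on the untreated arrays, 8.95 and 8.80 in OB SostKO, 8.79 and 8.86 in OB WT + rhDKK1 and 8.89, 8.85 and 8.80 in OB WT + rhSOST. All co-culture arrays were above both untreated ones. It rose in OB WT + rhSOST, by 0.29 ± 0.07 (SE) on the log2 scale (limma, adjusted p = 0.0475), while the log2 fold changes of 0.32 ± 0.08 in OB SostKO and 0.27 ± 0.08 in OB WT + rhDKK1 did not pass (adjusted p = 0.0634 and 0.0968). The 3 values differed by less than their errors, and the direct comparisons of DDIT3 between co-cultures did not pass either. Its rise in OB WT + rhSOST lost the call in 7 of the 9 fits that left out an array, with adjusted p between 0.0571 without OB WT + rhSOST array 3 and 0.194 without untreated array 1, the others being untreated array 2 (0.150), either OB WT + rhDKK1 array (0.0837), and OB WT + rhSOST arrays 1 (0.116) and 2 (0.130).

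ATF4 itself had the opposite sign. Its log2 values were 11.94 and 12.02 on the untreated arrays, 11.63 and 11.56 in OB SostKO, 11.53 and 11.62 in OB WT + rhDKK1 and 11.63, 11.54 and 11.79 in OB WT + rhSOST, where array 3 was nearest to the untreated arrays. The co-culture arrays all lay below both untreated arrays, and the 3 co-culture groups overlapped each other. The log2 fold changes of -0.39 ± 0.10 (SE), -0.40 ± 0.10 and -0.33 ± 0.09 did not pass (limma, adjusted p = 0.0632, 0.0526 and 0.0609). Without OB WT + rhSOST array 3 all 3 passed (adjusted p = 0.0340, 0.0301 and 0.0300). ATF4 output is governed chiefly by translation of its RNA, which these arrays do not measure.

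XBP1 had log2 values of 8.69 and 8.53 on the untreated arrays, 8.08 and 8.47 in OB SostKO, 8.47 and 8.41 in OB WT + rhDKK1 and 8.32, 8.41 and 8.42 in OB WT + rhSOST. OB SostKO array 1 was well below the rest, and the log2 fold changes of -0.33, -0.17 and -0.22 did not pass (limma, adjusted p = 0.180, 0.472 and 0.278). Without OB SostKO array 2, the OB SostKO value was -0.52 (adjusted p = 0.0498), which rests on array 1 alone with the spread taken from the other groups. Spliced and unspliced XBP1 RNA are not separated by this value. CEBPB and CEBPG, partners of ATF4, had log2 fold changes of -0.24, -0.18 and -0.22 and of 0.22, 0.17 and 0.06, none of which passed.

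**Figure D2:**
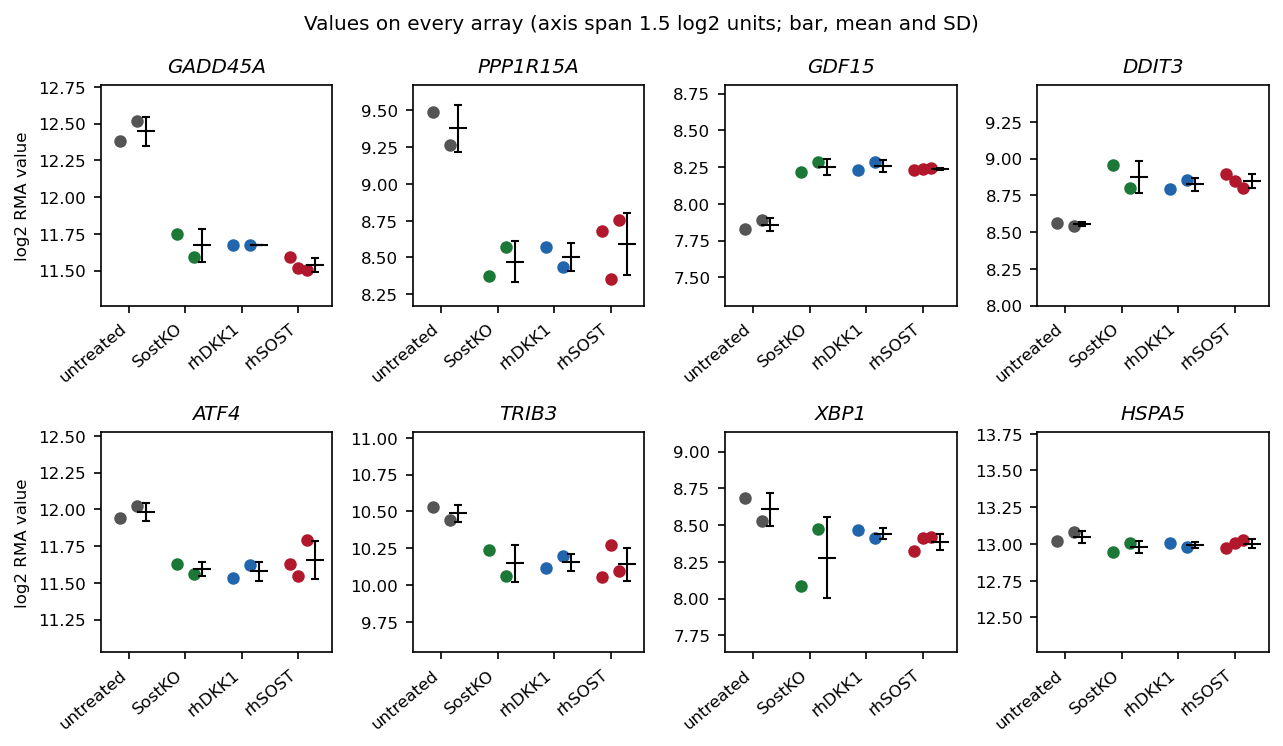
Log2 RMA values of 8 members on every array, 1 panel a gene, with points for arrays by condition and a bar for the mean and SD of each condition (n = 2, 2, 2 and 3). Every axis spans 1.5 log2 units. GADD45A and PPP1R15A drop by about 0.8 to 0.9 units from untreated to co-culture, GDF15 and DDIT3 lie about 0.3 to 0.4 higher, and HSPA5 stays between 12.95 and 13.08.

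The RNAs of the 3 sensors did not pass the test in any comparison. ERN1 had log2 values of 8.15 and 8.44 on the untreated arrays, 8.21 and 8.36 in OB SostKO, 8.35 and 8.25 in OB WT + rhDKK1 and 8.35, 8.33 and 8.47 in OB WT + rhSOST, so that the groups overlapped. EIF2AK3 stood at 9.27 and 9.39, then 9.10 and 9.17, 9.11 and 9.13, and 9.09, 9.17 and 9.23 in the same order, with all co-culture arrays lower than both untreated ones. Its log2 fold changes were -0.20, -0.21 and -0.17 (limma, adjusted p = 0.212, 0.186 and 0.207). ATF6 stood at 8.95 and 8.94, then 9.06 and 9.01, 9.04 and 9.08, and 8.96, 8.997 and 9.08, with log2 fold changes of 0.09, 0.12 and 0.07 (adjusted p = 0.509, 0.399 and 0.603). By their brightest sets, the 95% intervals of the 3 sensors lay between -0.39 and 0.32 over the 3 comparisons. The other kept sets of ATF6 also lay above untreated PC3 and did not pass, and those of ERN1 lay below. The ATF6 set with the largest change had log2 fold changes of 0.69, 0.50 and 0.30 (limma, adjusted p = 0.140, 0.248 and 0.424). An interval of ATF6 passed ±1 in OB SostKO.

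Of the 12 chaperones and folding enzymes, 0 passed the test in any of the 3 comparisons, and their median log2 fold changes were -0.02, -0.04 and -0.02. At an unadjusted p under 0.05 there were CALR and HYOU1 in OB SostKO and CANX in the other 2 co-cultures. HSPA5, the chief chaperone of the lumen, had log2 values of 13.02 and 13.08 on the untreated arrays, 12.95 and 13.01 in OB SostKO, 13.01 and 12.98 in OB WT + rhDKK1 and 12.97, 13.01 and 13.03 in OB WT + rhSOST. The untreated and co-culture arrays overlapped. Its log2 fold changes were -0.07 (95% interval -0.23 to 0.09), -0.05 (-0.21 to 0.10) and -0.05 (-0.19 to 0.10), and its adjusted p were 0.608, 0.689 and 0.721 (limma).

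The remaining chaperones had small values of either sign. HYOU1, a large chaperone of the lumen, had log2 fold changes of -0.46, -0.34 and -0.10 and CALR, a lectin chaperone that also binds calcium, of -0.30, -0.27 and -0.03 (limma, adjusted p of at least 0.218 and 0.221). For HYOU1, array 3 of OB WT + rhSOST stood at 11.44, above both untreated arrays (11.07 and 11.18), while the other 6 co-culture arrays lay between 10.60 and 10.85. CANX, the membrane-bound partner of CALR, was higher on all 7 co-culture arrays by its brightest set, with log2 fold changes of 0.11, 0.20 and 0.23 (adjusted p = 0.396, 0.144 and 0.0650). Of its 4 kept sets, 2 shared this sign. The others lay below, with log2 fold changes of -0.25, -0.14 and -0.14 and of -0.17, -0.05 and -0.17. MANF, a secreted survival factor of the lumen, had log2 fold changes of -0.15, -0.18 and -0.17, and SDF2L1, a cofactor of the HSPA5 system, of 0.26, 0.25 and 0.11. By the brightest sets, the 95% intervals of all 12 stayed within ±1 in each comparison, and within ±0.5 for 8, 8 and 12 of them.

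No gene with a full promoter element passed the test. The 7 genes with the full endoplasmic reticulum stress element, shown above, included 0 that passed, with log2 fold changes from -0.33 to 0.42 in OB SostKO, -0.27 to 0.27 in OB WT + rhDKK1 and -0.22 to 0.23 in OB WT + rhSOST and medians of -0.01, -0.03 and -0.03. The 6 genes with TGATGNAAN likewise included 0 that passed, with medians of -0.03, -0.03 and -0.07, of which 3 lay above and 3 below untreated PC3 in each comparison.

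Among the 3 genes of endoplasmic reticulum-associated degradation, which returns misfolded proteins to the cytosol, 0 passed. HERPUD1, a scaffold of the degradation complex, was below both untreated arrays on all 7 co-culture arrays, with log2 fold changes of -0.23, -0.27 and -0.26 (limma, adjusted p = 0.149, 0.0999 and 0.0725). EDEM1, which picks out misfolded glycoproteins, had log2 fold changes of -0.02, -0.09 and 0.02. SEL1L, the adaptor of the ubiquitin ligase, had log2 values of 10.11 and 10.05 on the untreated arrays, 10.02 and 10.01 in OB SostKO, 10.00 and 10.07 in OB WT + rhDKK1 and 10.06, 10.14 and 10.11 in OB WT + rhSOST. The groups overlapped, and its log2 fold changes were -0.07, -0.04 and 0.02.

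**Figure D3:**
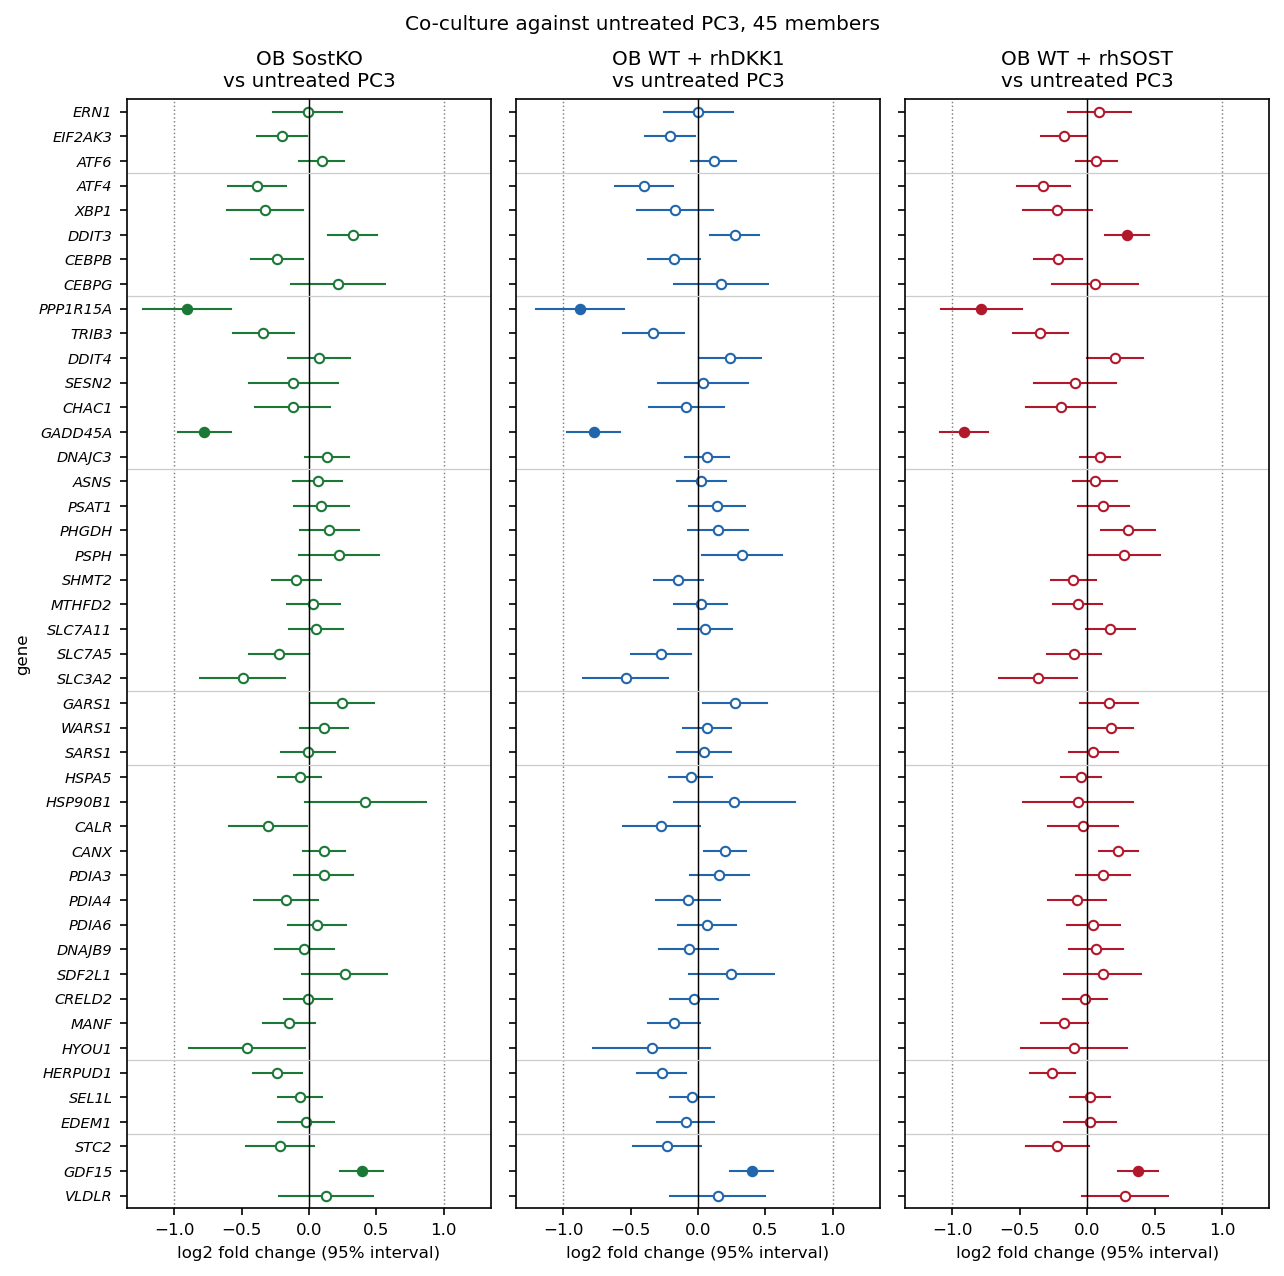
Log2 fold change of each of the 45 genes against untreated PC3 (points) with its 95% interval (lines), 1 panel for each co-culture. Filled points have an adjusted p under 0.05, dotted lines mark a fold of 2, and gray lines part the roles in the order of the heat map. Filled points are PPP1R15A, GADD45A and GDF15 in all 3 panels and DDIT3 in OB WT + rhSOST.

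Of the 9 genes of amino acid and folate supply, 0 passed in any comparison, and their median log2 fold changes were 0.05, 0.02 and 0.06. ASNS, which makes asparagine and is a classic ATF4 target, stayed between log2 values of 10.08 and 10.24 on all 9 arrays, with log2 fold changes of 0.06, 0.02 and 0.06. The serine synthesis genes PHGDH, PSAT1 and PSPH lay above untreated PC3 in all 3 comparisons by their brightest sets, PHGDH with log2 fold changes of 0.15, 0.15 and 0.30 and PSPH with 0.22, 0.33 and 0.27, and none passed (limma, smallest adjusted p of PHGDH = 0.0811). The second, dimmer set of PSAT1 lay below, with log2 fold changes of -0.43, -0.24 and -0.39 (adjusted p = 0.237, 0.478 and 0.217). SLC3A2, the heavy chain of the amino acid exchangers formed with SLC7A5 and SLC7A11, had the lowest log2 fold changes of the group. It stood at 9.88 and 9.81 on the untreated arrays, 9.28 and 9.43 in OB SostKO, 9.41 and 9.21 in OB WT + rhDKK1 and 9.40, 9.31 and 9.74 in OB WT + rhSOST. All 7 co-culture arrays were lower, array 3 of OB WT + rhSOST by the least, and the log2 fold changes of -0.49, -0.54 and -0.36 did not pass (adjusted p = 0.0931, 0.0693 and 0.130). The 3 aminoacyl-tRNA synthetases, which charge tRNAs with amino acids, did not pass either, GARS1 having log2 fold changes of 0.25, 0.27 and 0.16.

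The probe set chosen for a gene mattered for several members. Of the 26 genes with more than 1 kept probe set, all sets had the same sign in 12 and signs differed in 14, and the brightest set had the largest change in 6. Over all 33970 kept probe sets, 5, 5 and 6 of the members' 88 passed, beside 1.62%, 1.75% and 3.99% of all kept probe sets. For TRIB3, the second set had log2 fold changes of -0.58, -0.60 and -0.70 and fell in OB WT + rhSOST (limma, adjusted p = 0.0267). For PSPH, 1 dimmer set rose by 0.48, 0.42 and 0.38 on the log2 scale (adjusted p = 0.0353, 0.0467 and 0.0310), while another had log2 fold changes of -0.42, -0.22 and -0.27.

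HSP90B1 (GRP94) and SEL1L are both in a supplementary gene list that the study chose on these arrays. Averaged over the 3 comparisons, the log2 fold changes of the sets with 1 symbol spanned 0.91 in HSP90B1, 0.73 in PSPH, 0.69 in CALR, 0.58 in CANX and 0.50 in SEL1L. For HSP90B1 the set standing for the gene had log2 values of 11.60 and 11.63 on the untreated arrays, 11.90 and 12.16 in OB SostKO, 12.03 and 11.73 in OB WT + rhDKK1 and 11.86, 11.58 and 11.19 in OB WT + rhSOST. Its log2 fold changes of 0.42, 0.27 and -0.07 did not pass (limma, adjusted p = 0.270, 0.467 and 0.872), and without array 3 of OB WT + rhSOST the last was 0.11. The dimmest set stood at 7.03 and 6.34, then 8.38 and 7.78, 8.03 and 8.36, and 7.70, 7.44 and 6.25, with log2 fold changes of 1.40, 1.51 and 0.45 (adjusted p = 0.166, 0.138 and 0.603). The remaining sets of HSP90B1 also carry the symbol of a microRNA gene. The first of them stood at 11.86 and 12.49, then 13.04 and 13.27, 13.18 and 12.88, and 13.07, 12.72 and 11.09. The second, the brightest of all, lay between 13.34 and 13.51 on all 9 arrays.

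For SEL1L, the set with the largest change stood at 7.60 and 7.92 on the untreated arrays, 8.37 and 8.45 in OB SostKO, 8.40 and 8.31 in OB WT + rhDKK1 and 8.05, 8.30 and 7.47 in OB WT + rhSOST. Its log2 fold changes of 0.65, 0.59 and 0.18 did not pass over all probe sets (limma, adjusted p = 0.204, 0.237 and 0.707), and the brightest set, given above, did not share them. Its other 2 sets had log2 fold changes of 0.17, 0.19 and 0.22 and of 0.28, 0.29 and 0.29. In that set of SEL1L as in 3 of the 4 sets of HSP90B1, array 3 of OB WT + rhSOST was below both untreated arrays and the lowest of the 7 co-culture arrays.

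**Figure D4:**
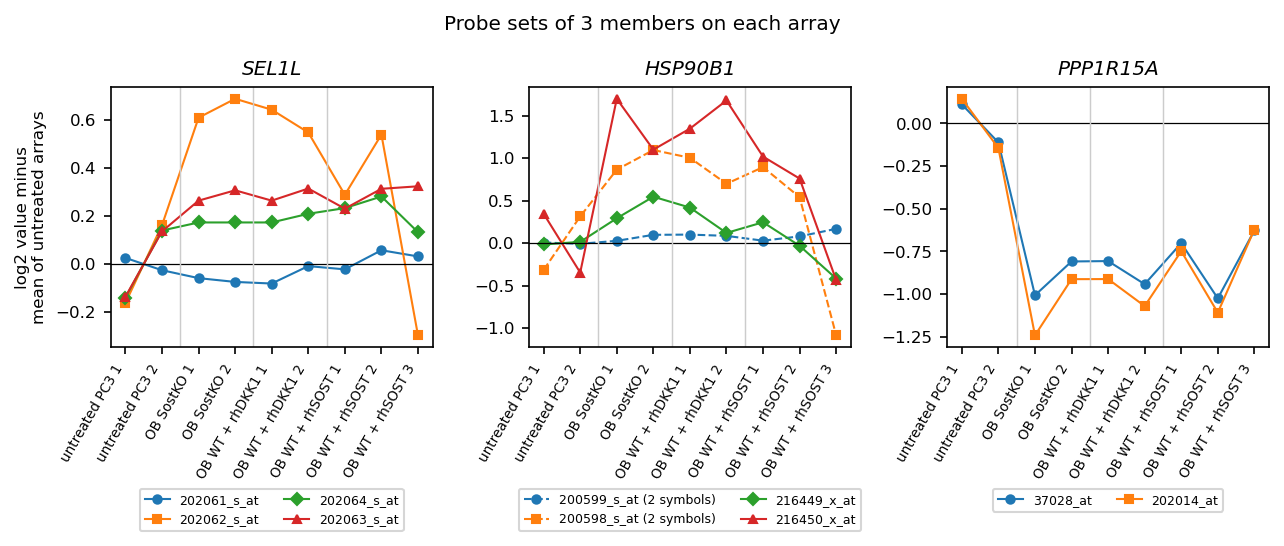
Log2 value of each kept probe set of SEL1L, HSP90B1 and PPP1R15A on the 9 arrays (x axis), minus the mean of its 2 untreated arrays (y axis, a different span in each panel). Dashed lines are probe sets that carry a second gene symbol. The 2 sets of PPP1R15A run together, while those of HSP90B1 and SEL1L part, and OB WT + rhSOST array 3 is low in some of them.

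Beyond the 45 genes, a list of 109 other genes of these pathways was examined, of which 97 were tested. In OB SostKO 1 rose and 3 fell, and in OB WT + rhDKK1 and OB WT + rhSOST 1 rose and 5 fell, which makes 4.12%, 6.19% and 6.19% of the list against the 3.72%, 4.26% and 6.97% of all genes. ATF3, a factor that ATF4 induces and that many other stimuli raise too, fell by 1.28 ± 0.10 (SE), 1.30 ± 0.10 and 1.26 ± 0.09 on the log2 scale (limma, adjusted p = 0.000947, 0.00066 and 0.000411). SQSTM1, an autophagy receptor, fell by 0.75, 0.81 and 0.64 (adjusted p = 0.0124, 0.00825 and 0.00901), and TXNIP, an inhibitor of thioredoxin, rose by 0.41, 0.46 and 0.46 (adjusted p = 0.0318, 0.0206 and 0.00943). PPP1R15B, the constitutive counterpart of PPP1R15A, fell by 0.51 in OB SostKO and 0.41 in OB WT + rhSOST (adjusted p = 0.0425 and 0.0476), with a log2 fold change of -0.42 in OB WT + rhDKK1 (adjusted p = 0.0748). Of 15 degradation genes tested, UBE2J1 and HM13 fell in OB WT + rhDKK1 and OB WT + rhSOST and DERL3 in OB WT + rhDKK1. HM13 had log2 fold changes of -0.46, -0.46 and -0.41 (limma, adjusted p = 0.0541, 0.0497 and 0.0396), close in size on either side of the threshold. DERL3 was dim, at log2 values of 5.74 to 6.25. None passed in any comparison among 15 other chaperones, 9 other tRNA synthetases, 9 other amino acid genes and 19 genes of translocation and secretory transport.

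The question of the study turns on sclerostin, and the direct comparisons between co-cultures bear on it without the means of the untreated arrays. The untreated arrays still entered the shared estimate of the spread. OB SostKO and OB WT + rhSOST differ in osteoblast genotype and in added protein at once. No SOST was added in either group of OB SostKO against OB WT + rhDKK1. OB SostKO against OB WT + rhSOST, OB WT + rhDKK1 against OB WT + rhSOST and OB SostKO against OB WT + rhDKK1 each gave 0 members and 0 of all 14863 genes (0%) at an adjusted p under 0.05 (limma). At an unadjusted p under 0.05 there were 2, 0 and 0 members, beside 4.08%, 2.57% and 0.828% of all genes. The first comparison had HSP90B1, with a log2 difference of 0.49 (95% interval 0.08 to 0.89, adjusted p = 0.800), and CALR, with -0.27 (-0.53 to -0.01, adjusted p = 0.800). The HSP90B1 difference was 0.31 without OB WT + rhSOST array 3, and that of CALR was -0.11 without OB SostKO array 1 and -0.44 without OB SostKO array 2. In the second comparison the smallest p was that of CALR, with -0.24 (-0.50 to 0.02, adjusted p = 1), and in the third that of DDIT4, with -0.16 (-0.39 to 0.07, adjusted p = 1). GADD45A, PPP1R15A and GDF15 differed between OB SostKO and OB WT + rhSOST by 0.13 (-0.04 to 0.31), -0.12 (-0.42 to 0.18) and 0.01 (-0.13 to 0.16). By the brightest probe set with 1 symbol, the 95% intervals of all 45 genes stayed within a log2 difference of ±1 in all 3 comparisons. Over all 88 kept probe sets of the members, 5, 4 and 3 intervals passed ±1, all of them in CALR, DNAJC3 and HSP90B1. The dimmest set of HSP90B1 had a log2 difference of 0.95 (-0.02 to 1.92) between OB SostKO and OB WT + rhSOST. Some arrays of different co-cultures were more alike than arrays of 1 group. OB SostKO array 2 had a correlation of 0.999 with OB WT + rhDKK1 array 1. That of OB SostKO array 1 with OB WT + rhDKK1 array 2 was 0.9977. Within OB SostKO it was 0.9954 and within OB WT + rhDKK1 0.9973. This spread within groups enters the direct tests, so 0 calls do not show that the co-cultures were the same.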

How the data were processed

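The authors deposited 1 table of log2 values made by RMA (background correction, quantile normalization and summary of probes) for 54675 probe sets on 9 arrays. Arrays give no read depth, and their number limits the precision. The 62 control probe sets were left out. A probe set was kept where 2 or more arrays had it at or above their own 40th percentile (33970 sets), and each gene was given by its brightest kept probe set with 1 symbol in the platform annotation. For 2 members, HSP90B1 and PHGDH, a brighter kept set carries several symbols and did not stand for the gene. All 14863 genes were fitted with lmFit and eBayes (limma 3.58.1, R 4.3.3) to the means of the 4 groups over all 9 arrays, and p-values were adjusted by Benjamini-Hochberg over all genes. Rose and fell mean an adjusted p under 0.05. Each array's label numbers it as a biological replicate, without describing how separate the cultures were. The p-values measure the spread between arrays, and how much of it is technical is not known. The 45 members, the pathway and marker lists and the genes described were chosen with earlier results of these data known: named were all members that passed, the sensors, factors and chief chaperones, and members in the study's supplementary lists. Motifs were searched by exact letters in RefSeq promoter windows. The code was tested on simulated data. Alternatives covered filter, scaling, probe set, model and left-out arrays.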

Additional observations from a re-analysis of the deposited data

How the results depend on the processing

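Of 131 recomputed counts of members, 98 stayed within 1.5 times the reported 3 (OB SostKO), 3 (OB WT + rhDKK1), 4 (OB WT + rhSOST) and 0 (direct comparisons), and 33 moved. Counts of the direct comparisons nearly all stayed at 0 and are among the 98. Most of the 33 that moved were counts against untreated PC3, so the 98 do not measure how steady the reported 3, 3 and 4 are. In that order of co-cultures, the 60th percentile filter gave 5, 4 and 7 members, cyclic loess 3, 5 and 5, array weights 3, 6 and 6, an adjusted p under 0.1 6, 8 and 9, and fits of only the 2 groups compared 0, 0 and 3. ANOVA with Tukey comparisons gave 6, 7 and 8 unadjusted and 0, 0 and 0 with the ANOVA p adjusted, and the methods' paired t-test 4, 7 and 6 unadjusted and 0, 0 and 0 adjusted. Direct counts moved only unadjusted, to 1 (OB SostKO against OB WT + rhSOST, Tukey), 4 (OB WT + rhDKK1 against OB WT + rhSOST, paired t-test) and 1 (OB SostKO against OB WT + rhDKK1, paired t-test). Leaving out 1 array, which in groups of 2 leaves a lone array assumed to vary like the others, gave 1 to 6, 1 to 5 and 1 to 5 members, with 1, 1 and 1 without untreated array 1 and 6, 5 and 5 without OB WT + rhSOST array 3. The deviations of same-numbered arrays had correlations of either sign, from -0.57 to 0.31. In a group of 2 arrays the deviations mirror each other, so 2 such groups give the same value for replicates 1 and 2. These correlations cannot decide whether the numbers pair the arrays. The replicate block gave 2, 4 and 2 members and 0 in each direct comparison, and a crossed block, chosen after seeing the data, 5 for OB WT + rhDKK1. The cause of these shifts was not tested.

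Of 720 recomputed log2 fold changes or differences of single members, 639 kept direction and call, 42 lost and 18 gained the call, and 21 changed sign, none of them in a member that passed. For ERN1 in OB SostKO, leaving out 1 array gave -0.16 to 0.14 (0.14 without untreated array 2, 0.067 without OB SostKO array 1). In OB WT + rhDKK1 it had -0.020 with cyclic loess, -0.048 with the mean of probe sets, -0.13 with the probe set of largest change and -0.15 to 0.15 with 1 array left out (-0.15 without untreated array 1, -0.047 without OB WT + rhDKK1 array 1). In OB WT + rhSOST it had -0.051 with the mean of probe sets, -0.20 with the largest change and -0.057 to 0.24 with 1 array left out (-0.057 without untreated array 1). SEL1L had 0.26 and 0.65 in OB SostKO and 0.26 and 0.59 in OB WT + rhDKK1 (mean of probe sets, largest change), and in OB WT + rhSOST -0.015 with cyclic loess and -0.0032 to 0.048 with 1 array left out (-0.0032 without untreated array 2). HSP90B1 in OB WT + rhSOST had 0.19 with the mean of probe sets, 0.11 with the replicate block, 0.092 with the brightest set of any annotation, chosen after seeing the data, 0.45 with the largest change and -0.22 to 0.11 with 1 array left out (0.11 without array 3).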
